A study of Mus musculus with 12 samples.

Results

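Transcripts of 8 neutrophil granule genes were followed across sorted bone progenitors of the mouse: S100a8 and S100a9, Camp, Ltf, Ngp and Lcn2, and Elane and Mpo. The genes were taken by name, and each had 1 probe set with a single gene symbol, so that 8 of the 18193 genes with such a probe set make up the set. Each gene was placed against the median of all probe sets of the same array, which lay between 7.65 and 7.76 on the log2 scale. Of the 96 values, 8 genes in 12 arrays, 28 lay above that median and 68 below it. Elane and Mpo were below it in all 12 arrays.

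Neutrophils are short-lived phagocytes made in the bone marrow, and they pack antimicrobial proteins into granules in a fixed order as they mature. Early precursors make the proteases and peroxidase of the primary granules, and later precursors make the iron-binding and antimicrobial proteins of the secondary granules. The calprotectin subunits S100A8 and S100A9 fill the cytosol of the maturing cell, and several of these genes are also switched on in other cells during inflammation. Skeletal progenitors lie next to this marrow, and their own textbook markers are collagens, growth factor receptors and bone enzymes rather than granule proteins.

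The cells came from JUN inducible mice, in which doxycycline turns on the transcription factor JUN, and were sorted by flow cytometry from limb bones, skull cap, shoulder blade, vertebrae and ribs. The populations are named SSC, CSP and Thy as the sample labels write them, and the design text of the series uses BCSP and Thy+ for the latter pair. JUN was induced in pups for 2 days through doxycycline in the mother's drinking water, and the arm whose label reads -JUN is taken here as the arm without induction. The labels do not say what that arm received. Age, doxycycline dose, the tissues in which the JUN transgene is active and the sorting gates are likewise not given in the sources used here. Each of the 6 groups held 2 arrays, and the titles name 5 mice. Mouse 3 gave all populations without JUN, mouse 3b gave CSP and Thy without JUN, mouse 10 gave SSC without JUN, and mice 4 and 7 gave all populations with JUN. An effect of JUN can therefore not be told apart from a difference between these few mice, and p-values here measure only how these samples spread. Within a bulk sort, fewer neutrophils and less RNA per cell cannot be told apart.

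Some facts of the whole series touch every value below. Any 2 arrays correlated at 0.872 to 0.979 across probe sets. The osteoprogenitor label fitted the arrays: of 13 marker genes on the array, 10, among them Pdgfra, Prrx1, Col1a1 and Col1a2, were above the median in every array, and Thy1, which encodes the surface protein that names the Thy population, was lower in SSC than in Thy by 4.70 on the log2 scale (limma, adjusted p = 0.000108). Jun, the gene to be induced, read 12.06 to 13.65 over the 12 arrays and its average difference with JUN was -0.13 ± 0.23 (SE, adjusted p = 0.799), and the sources used here do not say whether its probe set reads the transgene. Arms are therefore named by their labels. Xist, which coats the inactive X chromosome of female cells, read 12.5 to 13.2 in the 3 arrays of mouse 3 and 6.11 to 7.29 in the other 9. The spiked poly-A controls, bacterial RNAs added in fixed amounts during labelling, averaged 8.47 to 11.2 in SSC, 9.95 to 11.8 in CSP and 11.3 to 12.3 in Thy.

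The sequences just before the transcription starts are shown for the 4 genes that were bright enough to be tested, because JUN is a subunit of AP-1 and the C/EBP and PU.1 factors are textbook regulators of granule genes. The 250 bases upstream of the RefSeq start (build GRCm38.p6) were searched on both strands for the AP-1 letters TGANTCA, the C/EBP letters TTGCNNAA and the PU.1 core GAGGAA, and none of the matches overlapped. Capitals mark C/EBP and PU.1 matches. The stretches are S100a8 at chr3:90668821-90669070 on the plus strand, S100a9 at chr3:90695722-90695971 on the minus strand, Camp at chr9:109849457-109849706 on the minus strand and Ltf at chr9:111019042-111019291 on the plus strand, each written in the direction of its gene.
S100a8: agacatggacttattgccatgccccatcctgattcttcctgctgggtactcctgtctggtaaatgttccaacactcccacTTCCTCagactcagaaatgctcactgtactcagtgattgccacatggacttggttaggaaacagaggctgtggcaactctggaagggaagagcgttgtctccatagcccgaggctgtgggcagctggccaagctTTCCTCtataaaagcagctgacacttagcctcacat
S100a9: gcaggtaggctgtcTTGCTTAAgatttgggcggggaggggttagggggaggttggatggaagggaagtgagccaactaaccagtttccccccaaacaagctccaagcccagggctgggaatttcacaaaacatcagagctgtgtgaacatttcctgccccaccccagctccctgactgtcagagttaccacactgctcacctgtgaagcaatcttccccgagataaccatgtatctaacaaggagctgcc
Camp: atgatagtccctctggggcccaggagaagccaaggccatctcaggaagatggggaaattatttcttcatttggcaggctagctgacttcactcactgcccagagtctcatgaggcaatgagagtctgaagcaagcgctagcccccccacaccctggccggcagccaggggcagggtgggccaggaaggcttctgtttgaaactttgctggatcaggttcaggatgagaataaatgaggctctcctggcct
Ltf: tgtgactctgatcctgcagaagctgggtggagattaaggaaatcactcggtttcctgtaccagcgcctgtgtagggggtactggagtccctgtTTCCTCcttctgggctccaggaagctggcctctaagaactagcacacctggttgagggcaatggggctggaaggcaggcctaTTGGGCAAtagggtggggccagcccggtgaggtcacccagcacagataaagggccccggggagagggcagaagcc
TGANTCA was in none of the 8 upstream stretches, against 6.75% of all 32851 RefSeq promoters of the same length. TTGCNNAA was in 4 of the 8, those of S100a9, Ltf, Lcn2 and, at 2 places, Ngp, against 9.56% of all. GAGGAA was in 5 of the 8, those of S100a8, Ltf, Lcn2, Elane and Mpo, against 23.3% of all, and it stood at 2 places each in S100a8 and Mpo. Camp held none of the 3. These are letter matches in a fixed window and are not measured binding. S100a8 and S100a9 are direct neighbours on chromosome 3 with no protein-coding gene between them in RefSeq, and Camp, Ngp and Ltf all lie on chromosome 9.

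S100a8 encodes the smaller subunit of calprotectin, a calcium- and zinc-binding protein that neutrophils release at sites of inflammation. In SSC its log2 value was 6.29 and 6.58 without JUN (replicates 1 and 3) and 6.49 and 6.40 with JUN (replicates 1 and 2). In CSP it was 6.76 and 6.91 without JUN and 9.12 and 7.72 with JUN, and in Thy 6.87 and 7.74 without and 7.86 and 7.92 with JUN. S100a8 was below the array median in all 4 SSC arrays and in both CSP arrays without JUN, and above it in 5 of 12 arrays. The highest value belonged to CSP of mouse 4. No SSC array reached the lowest CSP or Thy array.

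S100a9 encodes the partner subunit of calprotectin. Its log2 values in SSC were 7.03 and 6.85 without JUN and 7.61 and 7.43 with JUN. They were 7.47 and 8.08 without and 8.87 and 8.45 with JUN in CSP, and 8.25 and 8.52 without and 8.22 and 8.21 with JUN in Thy. S100a9 was above the array median in 7 of 12 arrays, which were all 4 Thy arrays and all CSP arrays except replicate 1 without JUN. The JUN arrays were higher without overlap in SSC and CSP and lower without overlap in Thy.

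Camp encodes the cathelicidin precursor of the secondary granule. Its log2 values were 7.10 and 7.02 without JUN and 8.20 and 7.54 with JUN in SSC. In CSP they were 7.79 and 7.77 without and 8.12 and 8.34 with JUN, and in Thy 7.73 and 8.73 without and 9.36 and 9.17 with JUN. Camp was above the array median in 9 of 12 arrays, the most of the 8 genes, and was below it only in SSC, in 3 of the 4 arrays there. In each population both JUN arrays were higher than both arrays without JUN.

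Ltf encodes lactoferrin, the iron-binding protein of the secondary granule. It read 7.17 and 7.02 without JUN and 7.36 and 6.79 with JUN in SSC. It read 7.09 and 7.74 without and 7.87 and 8.02 with JUN in CSP, and 7.52 and 8.17 without and 7.26 and 8.40 with JUN in Thy. Ltf was above the array median in 5 of 12 arrays, none of them SSC. Its arms overlapped in SSC and in Thy.

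Ngp encodes neutrophilic granule protein, a cathelicidin relative of the secondary granule, and was above the array median in 1 of 12 arrays, Thy with JUN replicate 2. It read 6.27 and 5.77 without and 6.85 and 6.71 with JUN in SSC, 6.57 and 6.75 without and 7.28 and 6.86 with JUN in CSP, and 7.53 and 6.38 without and 7.68 and 7.68 with JUN in Thy. Lcn2 encodes lipocalin 2, which withholds iron from bacteria, and was also above the median in 1 array, CSP with JUN replicate 2. It read 6.77 and 5.89 without and 5.91 and 6.29 with JUN in SSC, 6.75 and 6.17 without and 7.04 and 8.93 with JUN in CSP, and 7.42 and 7.43 without and 7.19 and 7.56 with JUN in Thy. The peak of Lcn2 came from mouse 7, while that of S100a8 came from mouse 4. Ngp and Lcn2 were left out of the main test, which required a value above the median in at least 2 arrays.

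Elane and Mpo, which encode neutrophil elastase and myeloperoxidase of the primary granule, were dim throughout. Elane lay between 4.47 and 5.57 over the 12 arrays, at percentiles 4.80 to 16.7 of the probe sets of its array. Mpo lay between 5.04 and 6.97, at percentiles 10.2 to 38.9. The highest Elane value was in CSP with JUN replicate 1 and the highest Mpo value in CSP with JUN replicate 2. Probe sets differ in how strongly they hybridise, so the median is a common mark within an array and not a measure of which gene is more abundant. At this dimness RMA values also compress differences.

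**Figure D1:**
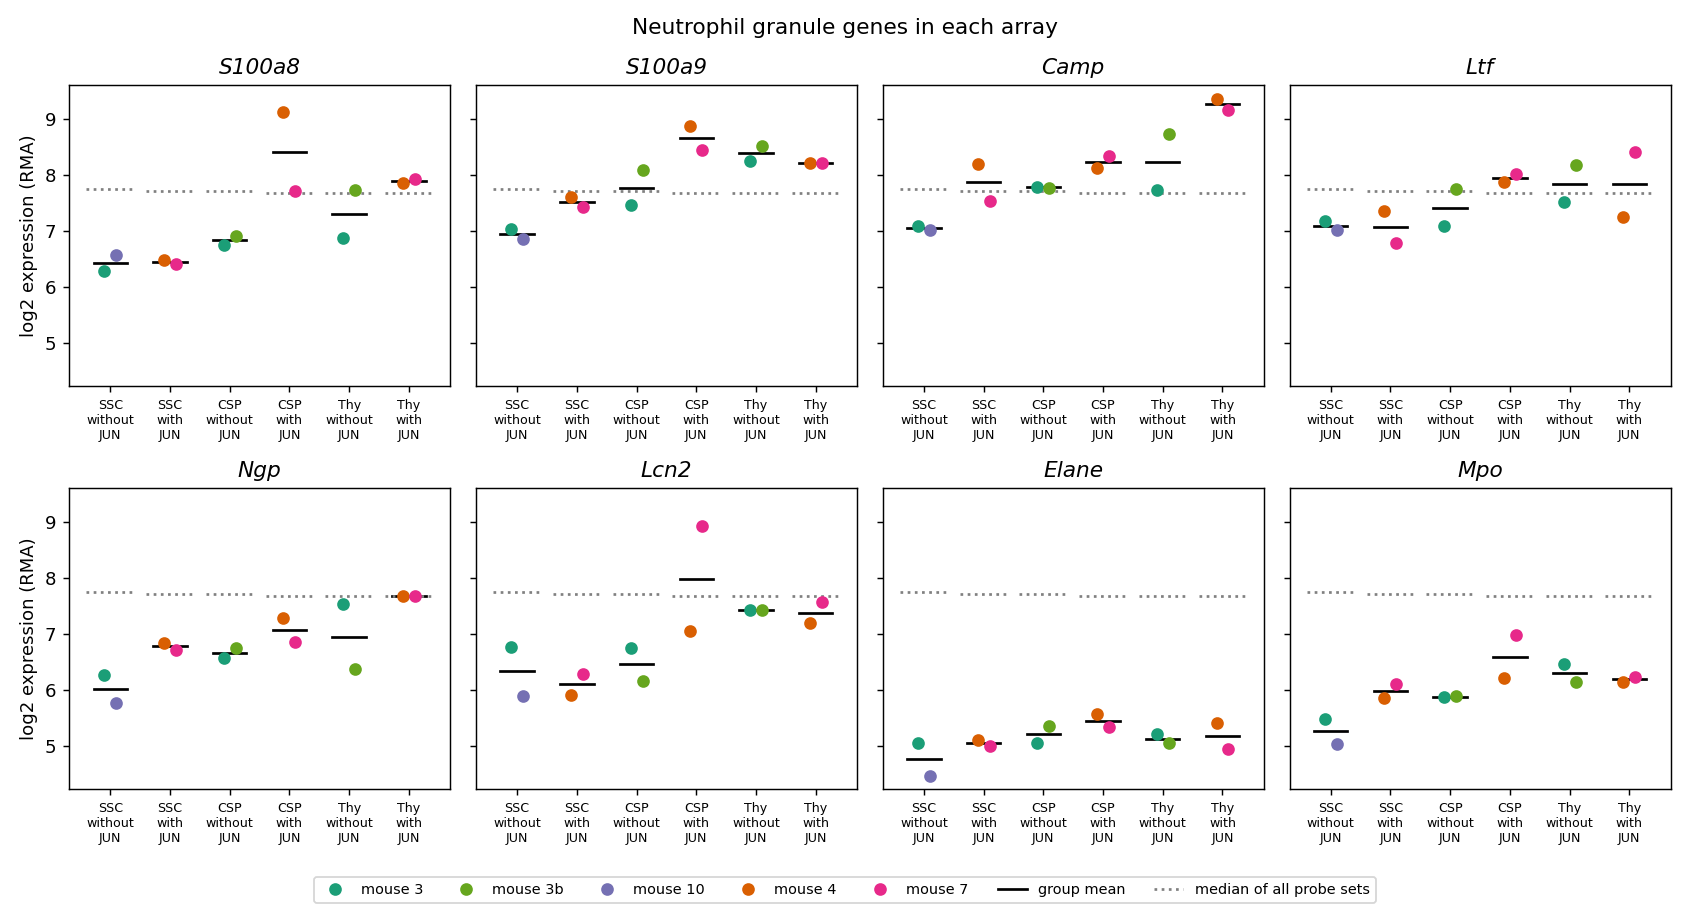
Log2 expression (RMA, y axis) of the 8 genes in the 6 groups (x axis), with 1 point per array coloured by mouse, black bars for group means of 2 arrays and dotted lines for the mean of the group's array medians. Camp is above the median in 9 of 12 arrays, Elane and Mpo in none, and S100a8 peaks at 9.12 in CSP with JUN.

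Between the populations, the granule genes were lowest in SSC. All 8 had a lower mean in SSC than in Thy, where 63.3% of all 18193 genes were lower in SSC, and all 8 had a lower mean in SSC than in CSP, where 61.1% of all genes were lower. These 2 comparisons share the 4 SSC arrays. The median difference over the 8 genes was -0.99 for SSC minus Thy and -0.60 for SSC minus CSP, beside -0.12 and -0.07 over all genes. CSP and Thy stood closer together, with 6 of 8 genes lower in CSP (57.0% of all genes) and a median difference of -0.12 beside -0.05.

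The widest gap between SSC and Thy belonged to Camp. Its mean was 7.47 ± 0.54 in SSC, 8.01 ± 0.28 in CSP and 8.75 ± 0.73 in Thy (SD, n = 4 arrays), and SSC minus Thy was -1.28 ± 0.25 (SE), which missed the threshold at adjusted p = 0.0514 in limma. Within the mice that gave both populations, the difference was -0.64 in mouse 3, -1.16 in mouse 4 and -1.62 in mouse 7. With the mouse as a block it was -1.18 at adjusted p = 0.187. It passed when all probe sets of each gene were averaged (adjusted p = 0.0410), without SSC JUN replicate 1 (-1.42, adjusted p = 0.0249) and without replicate 1 of Thy without JUN (-1.52, adjusted p = 0.0346). Camp has 1 probe set, so averaging probe sets left its difference at -1.28 and changed only the values of other genes. The Camp values of SSC and Thy overlapped, since the SSC array of mouse 4 at 8.20 exceeded the Thy array of mouse 3 at 7.73. Camp in CSP minus Thy was -0.74 ± 0.25 (adjusted p = 0.246).

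Both calprotectin genes were also lower in SSC, and the SSC arrays did not overlap the Thy arrays. S100a9 averaged 7.23 ± 0.35 in SSC, 8.22 ± 0.59 in CSP and 8.30 ± 0.15 in Thy (SD, n = 4 arrays). Its difference was -1.07 ± 0.25 for SSC minus Thy (adjusted p = 0.0884) and -0.99 ± 0.25 for SSC minus CSP (adjusted p = 0.182). It was lower in SSC in 3 of 3 mice in both comparisons, and with the mouse as a block adjusted p was 0.307 and 0.639. S100a8 averaged 6.44 ± 0.12, 7.62 ± 1.08 and 7.60 ± 0.49 in the same order, and its differences were -1.16 ± 0.36 for SSC minus Thy (adjusted p = 0.162) and -1.19 ± 0.36 for SSC minus CSP (adjusted p = 0.385). It too was lower in SSC in 3 of 3 mice. Without mouse 4, whose CSP array held the peak of 9.12, SSC minus CSP was -0.70. CSP and Thy did not differ beyond their spread for either gene, at 0.03 ± 0.36 for S100a8 and -0.08 ± 0.25 for S100a9.

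Of the other genes, Ltf was lower in SSC than in Thy by a difference of -0.75 ± 0.29 (adjusted p = 0.217), and in 1 of 3 mice, mouse 4, it was 0.10 higher. Fitted without a filter, Lcn2 differed by -1.19 ± 0.45, Ngp by -0.92 ± 0.24, Mpo by -0.62 ± 0.24 and Elane by -0.25 ± 0.18 between SSC and Thy, at adjusted p between 0.136 and 0.503. Ngp and Lcn2 were lower in SSC in 3 of 3 mice. Both averaged below the median even in Thy, at 7.32 ± 0.63 and 7.40 ± 0.15 (SD, n = 4 arrays). Mpo was lower in SSC in 3 of 3 mice, by as little as -0.12 in mouse 7, and the Elane difference turned to 0.04 in mouse 7. Between SSC and CSP the differences were -0.60 ± 0.29 for Ltf and -0.54 ± 0.25 for Camp (adjusted p = 0.795 and 0.761). Lcn2 differed there by -1.01 ± 0.45, Mpo by -0.61 ± 0.24, Ngp by -0.47 ± 0.24 and Elane by -0.43 ± 0.18, at adjusted p between 0.693 and 0.827 without a filter.

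Counted over the genes, none of the 4 tested passed the threshold in any population comparison, where 0.431% of the 12516 tested genes passed for SSC minus CSP, 0.391% for SSC minus Thy and 0.991% for CSP minus Thy. With the mouse as a block, 8 genes rather than 54 passed for SSC minus CSP and 4 rather than 49 for SSC minus Thy, and none of these 4 granule genes was among them. At an unadjusted p under 0.05 all 4 tested genes were lower in SSC than in Thy, beside 17.7% of all tested genes in either direction. The same count was 3 of 4 for SSC minus CSP (6.51% of all), with Ltf outside. S100a8, S100a9 and Ltf were above the median in no SSC array, and Camp there only with JUN replicate 1. The 4 genes thus passed the filter through CSP and Thy arrays, so both counts partly follow from the filter. Without overlap between 4 arrays and 4, S100a8, S100a9, Lcn2 and Mpo were lower in SSC than in Thy (4 of 8, beside 5.43% of all genes) and S100a8 was lower in SSC than in CSP (1 of 8, beside 2.31%). None of the 8 separated CSP from Thy in either direction, beside 4.92% of all genes.

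**Figure D2:**
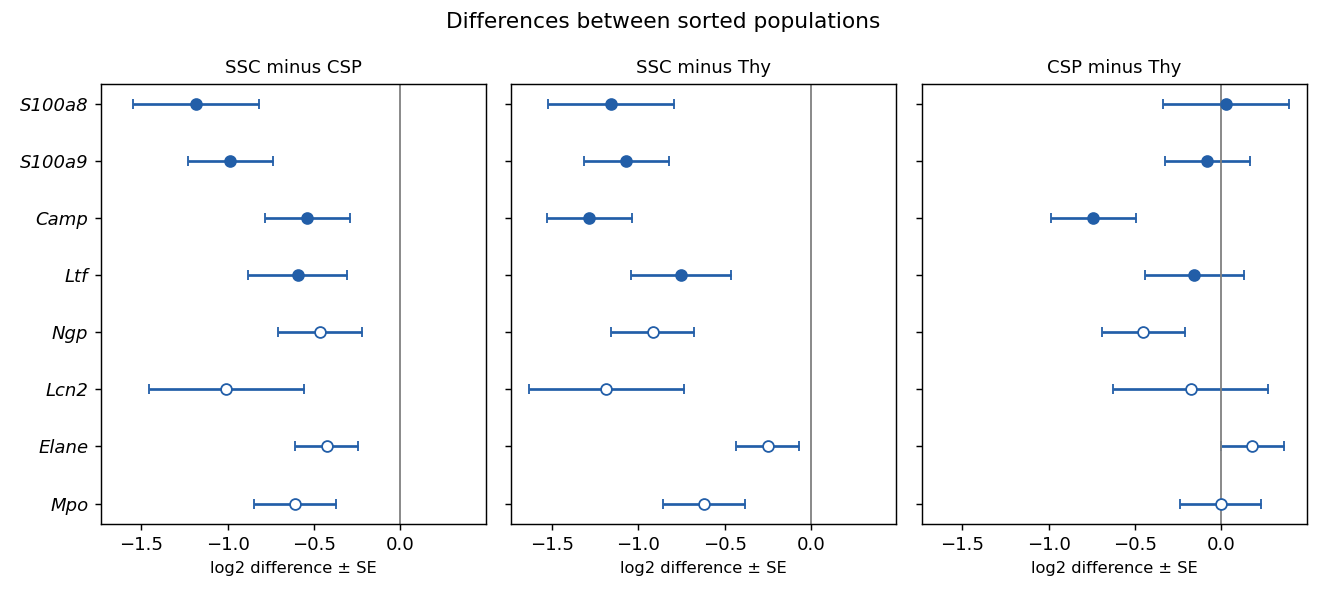
Log2 differences (x axis, ± SE of the fit, 4 arrays against 4) between sorted populations for each of the 8 genes (y axis), with filled points for the 4 tested genes and open points for the 4 genes fitted without a filter. All 8 points lie below 0 in both SSC panels, with Camp at -1.28 for SSC minus Thy, and none passed the threshold.

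The spiked controls moved with the same order of populations. Their mean was 8.47 and 9.11 in SSC without JUN, 11.2 and 9.95 in SSC with JUN, 9.95 and 10.8 in CSP without, 11.3 and 11.8 in CSP with, 11.9 and 11.3 in Thy without and 12.3 and 11.3 in Thy with JUN. With that mean as a covariate, an alternative chosen after seeing the data, SSC minus Thy became -1.27 for Camp, -1.58 for S100a8, -0.58 for S100a9 and -0.78 for Ltf, with 0.681 as the lowest adjusted p. How far the controls enter the population differences was not tested beyond this fit.

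The series sorted the cells after 2 days of induction, so each population was also compared between arms. In CSP all 8 genes were higher with JUN, where 61.3% of all genes were higher, and the median difference was 0.62 beside 0.10 over all genes. S100a8 stood at 1.59 ± 0.45, a ratio of 3.00, and S100a9 at 0.88 ± 0.31, a ratio of 1.84 (SE, 2 arrays against 2, adjusted p = 0.995 for both in limma). Lcn2, fitted without a filter, stood at 1.52 ± 0.54, Mpo at 0.71 ± 0.31, Ltf at 0.53 ± 0.43, Camp at 0.45 ± 0.37, Ngp at 0.41 ± 0.37 and Elane at 0.24 ± 0.29. The JUN arrays did not overlap the others for 7 of 8 genes, all except Elane, beside 23.0% of all genes that were higher without overlap in CSP. None of the 4 tested genes passed (0% of 12516 genes), and 2 of 4, S100a8 and S100a9, had an unadjusted p under 0.05, beside 2.30% of all.

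The size of these differences in CSP rested on single arrays. Without CSP JUN replicate 1 the S100a8 difference was 0.88, and without CSP JUN replicate 2 it was 2.29. The S100a9 difference ran from 0.58, without replicate 1 of the arm without JUN, to 1.19, without replicate 2 of that arm. Lcn2 turned on mouse 7, whose 8.93 compares with 7.04 in mouse 4 and 6.75 and 6.17 without JUN. The poly-A controls were also higher in both CSP arrays with JUN, and with them as a covariate S100a8 stood at 1.80 and S100a9 at 0.80.

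In Thy, Camp was the gene with the widest gap, at 1.03 ± 0.37 with JUN (ratio 2.05, adjusted p = 0.985). Ngp, fitted without a filter, stood at 0.73 ± 0.37 and S100a8 at 0.59 ± 0.45, while S100a9 stood at -0.18 ± 0.31, and at -0.041 without replicate 2 of Thy without JUN. The rest lay near 0, with Elane at 0.05, Ltf at -0.02, Lcn2 at -0.05 and Mpo at -0.11. Thus 4 of 8 genes were higher, beside 58.9% of all genes, and the median over the 8 was 0.02 beside 0.08. The arms did not overlap for 3 of 8 genes that were higher, S100a8, Camp and Ngp (19.2% of all genes), and for 1 of 8 that was lower, S100a9 (9.12%). Camp was the 1 tested gene at an unadjusted p under 0.05, beside 3.04% of all, and 0% of all genes passed the threshold. When replicate 1 of Thy without JUN, the lowest of the 4, was left out, the Camp difference was 0.53, and when replicate 2 was left out it was 1.53. S100a8 in Thy stood at 0.15 and 1.02 without the same arrays.

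In SSC, where the genes were dimmest, Camp stood at 0.81 ± 0.37 (ratio 1.76) and S100a9 at 0.58 ± 0.31 (ratio 1.49), both at adjusted p = 0.690. Ngp and Mpo, fitted without a filter, stood at 0.76 ± 0.37 and 0.72 ± 0.31, Elane at 0.29 ± 0.29 and Lcn2 at -0.23 ± 0.54. S100a8, at 0.01 ± 0.45, and Ltf, at -0.02 ± 0.43, had the same mean in both arms to within their error. In all, 6 of 8 genes were higher, beside 54.9% of all genes, and 4 of 8 were higher without overlap, S100a9, Camp, Ngp and Mpo, beside 21.4% of all. No gene passed (0% of all tested), and 0 of the 4 tested had an unadjusted p under 0.05 (6.50% of all). Of these SSC values only that of Camp with JUN replicate 1, at 8.20, was above the array median. Without that array the Camp difference was 0.48, and the poly-A controls were also higher in both SSC arrays with JUN than in both without.

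Averaged over the populations, all 8 genes were higher with JUN, beside 61.1% of all genes, with a median of 0.43 beside 0.08. Camp stood at 0.77 ± 0.21 (ratio 1.70), S100a8 at 0.73 ± 0.26 (ratio 1.66) and S100a9 at 0.43 ± 0.18 (ratio 1.35), each at adjusted p = 0.396, and Ltf stood at 0.16 ± 0.25 (adjusted p = 0.750). Without a filter, Ngp stood at 0.63 ± 0.21, Mpo at 0.44 ± 0.18, Lcn2 at 0.41 ± 0.31 and Elane at 0.19 ± 0.17. Of the 4 tested genes 3 had an unadjusted p under 0.05, beside 12.5% of all, and none passed the threshold, as with 0% of all. Averaging each mouse first left Camp at 0.75 and S100a8 at 0.61. Ltf turned to -0.03 without Thy JUN replicate 2. Without mouse 7 the S100a8 average was 0.96, and without mouse 4 it was 0.49. Each of these fits leaves 1 array in every group with JUN, all from 1 animal, so it sets that animal against the others.

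**Figure D3:**
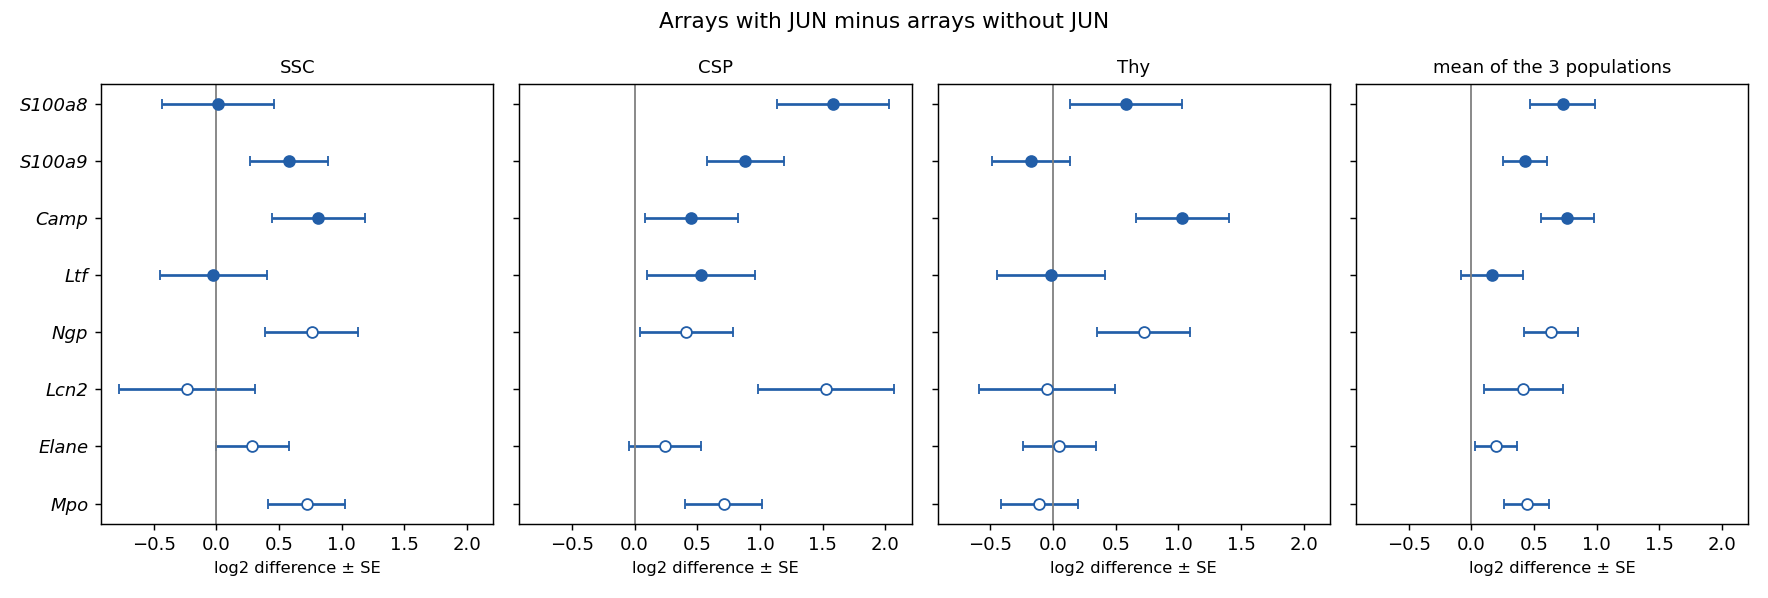
Log2 difference between arrays with and without JUN (x axis, ± SE of the fit) for the 8 genes (y axis) in SSC, CSP and Thy, 2 arrays against 2 each, and averaged over the populations. Filled points are the 4 tested genes and open points those fitted without a filter; all 8 lie above 0 in CSP, led by S100a8 at 1.59, and S100a9 lies below 0 in Thy at -0.18.

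A moderated F test asked whether the JUN difference itself varied between populations, which 0% of the tested genes passed and 1.15% met at an unadjusted p under 0.05. None of the 4 tested granule genes met either mark, each at an adjusted p of 0.9997. Among the 4, the largest gaps were those of S100a8, whose JUN difference was 1.57 ± 0.63 greater in CSP than in SSC, and of S100a9, whose JUN difference in Thy was below that in CSP by -1.06 ± 0.44. Lcn2, fitted without a filter, had wider gaps with wider errors, at 1.76 ± 0.77 for CSP minus SSC and -1.57 ± 0.77 for Thy minus CSP. Camp kept a positive JUN difference in each population, and its CSP and SSC differences were -0.36 ± 0.52 apart.

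Over all 12 arrays the members varied together to different degrees. S100a8 and S100a9, the 2 subunits of calprotectin, correlated at 0.85 (Pearson's r), at 0.69 after population means were removed and at 0.63 after group means were removed. Lcn2 and Mpo correlated at 0.81, within populations at 0.70 and within groups at 0.89, both being highest in CSP of mouse 7. Camp and Ltf, which share the secondary granule, correlated at 0.61, within populations at 0.30 and within groups at 0.42. S100a8 and Lcn2 correlated at 0.54 and, within populations, at 0.20, but at -0.80 within groups, and S100a8 and Mpo correlated at 0.50, 0.13 and -0.90 in the same order. With 2 arrays per group, deviations from a group mean mirror each other, so each within-group value rests on 6 pairs. The widest pair for S100a8, Lcn2 and Mpo was CSP with JUN, where S100a8 read 9.12 and 7.72 and Lcn2 7.04 and 8.93. These are descriptions over 12 arrays of 5 mice that share populations and labelling controls, and the arrays are not independent.

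Predicted genes were left out of the search for like patterns. Among the remaining tested genes, the pattern most like S100a8 over the 12 arrays belonged to Lrg1 (r = 0.88). Lrg1 encodes a leucine-rich glycoprotein also stored in neutrophil granules. Next to S100a8 came Ttc34 (0.88) and S100a9 (0.85). For S100a9 the closest were Rpp21 (0.90), Lpin3 (0.90) and Kif22 (0.88). For Camp they were Numbl (0.94), the interleukin 17 receptor gene Il17ra (0.94) and Nol6 (0.93), and for Ltf they were Tmed9, Pygl and Noxo1 (0.87, 0.85 and 0.85). S100a9 was the only member among the 3 closest genes of another member.

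Other genes in lists drawn up for the granules were often dim too, and these lists hold more than granule proteins. Of 9 genes of the primary granule list, Elane and Mpo included, 6 were above the median in no array. The protease genes Prtn3 and Ctsg were among these 6. The other 3, Serpinb1a, Gstm1 and Hk3, were above it in every array, and none of them encodes a primary granule protease or peroxidase. Of 17 genes of the secondary and tertiary granule list 6 were never above it, among them the collagenase gene Mmp8, Cd177 and Olfm4. Always above it were 4: Mmp9, which osteoclasts also make, Hp, the receptor gene Ltb4r1 and Ptx3. Of these 17, 8 were tested, Camp and Ltf included. With JUN, 8 of 8 were higher in CSP (57.0% of all tested genes), with a median of 0.36 beside 0.07, 5 of 8 in Thy (53.6%) and 5 of 8 in SSC (56.3%), and the last 2 shares are near those of all genes. In SSC 7 of 8 were lower than in Thy (57.7% of all), with a median of -0.58 beside -0.09, and 0 passed in any comparison. Camp, Ltf and Itgb2l, among these, passed the filter through CSP and Thy arrays, so this count partly follows from the filter. Of 22 neutrophil cytosol and surface genes, which include S100a8 and S100a9, 13 were never above the median, and these include Csf3r and Cxcr2, the receptors by which neutrophils sense their growth factor and chemokines. Csf3r read 5.56 to 6.37 and Cxcr2 5.04 to 6.11 over the 12 arrays. In the same list 2 genes were above the median in all 12 arrays, Anxa1 at 12.3 to 13.6 and Cyba at 12.3 to 13.4.

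Regulators and partners were brighter without passing either. Cebpa, Cebpb and Cebpd, which encode some members of the C/EBP family, were above the median in all 12 arrays. Spi1, which encodes PU.1, was above it in 2, and Gfi1 and Myb in none. Of 8 tested regulators 6 were higher with JUN in CSP, 7 in Thy and 5 in SSC, beside 57.0%, 53.6% and 56.3% of all tested genes, and 0 passed. Among 10 tested S100 genes, S100a8 and S100a9 included, 9 were higher with JUN in CSP (median 0.55 beside 0.07 over all tested genes), 9 in SSC and 8 in Thy, beside the same shares of all, and 0 passed. The calprotectin receptor genes Tlr4 and Ager were above the median in 11 and 12 arrays, and 0 of 8 tested receptors of calprotectin or lipocalin passed in any comparison. Of the listed cytokine and chemokine genes, Il6, Cxcl1 and Cxcl2 were above the median in every array, and Csf3, Il17a and Tnf in none.

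Most markers of blood cells at large were below the array median, with exceptions. Ptprc, which encodes the leukocyte surface protein CD45, read 5.45 to 6.54 and was below the median in all 12 arrays. Of 15 pan-leukocyte genes 8 were above the median in no array, among them Ptprc, Itgam and Tyrobp, and 1, Arhgdib, in every array. The mean of the list over SSC was 6.21 to 6.76, over CSP 6.30 to 6.92 and over Thy 6.72 to 7.05. Of the 6 tested genes of that list, 6 were lower in SSC than in Thy, beside 57.7% of all tested genes, and 1 passed, beside 0.391% of all. This was Arhgdib, at -1.43 ± 0.26 (limma, adjusted p = 0.0447). Arhgdib was as low in CSP, with SSC minus CSP at 0.22 ± 0.26 (adjusted p = 0.947). Its CSP minus Thy difference was -1.65 ± 0.26 (adjusted p = 0.0111), so it was high in Thy rather than low in SSC alone. Of the tested genes, Coro1a, Laptm5, Fcer1g and Rac2 were above the median in no SSC array and passed the filter through CSP or Thy. The shared direction therefore partly follows from the filter. Of 15 monocyte and macrophage genes 9 were never above the median, while F13a1, at 7.37 to 11.2, and Cd68, at 7.28 to 9.38, were above it in 11 arrays. The mean of that list was 6.58 to 6.95 over the 12 arrays. In CSP the pan-leukocyte mean was 6.30 and 6.80 without JUN and 6.73 and 6.92 with JUN, and the arms overlapped. The monocyte and macrophage mean was 6.58 and 6.78 without and 6.80 and 6.95 with JUN, and the mean of the neutrophil cytosol and surface list, which holds S100a8 and S100a9, was 6.57 and 6.97 without and 7.10 and 7.08 with JUN. For both of these list means the JUN arrays were higher without overlap, beside 23.0% of all single genes in CSP. The neutrophil list contains S100a8 and S100a9 themselves, so its order partly repeats theirs and is no separate view of the granule genes. How far blood cells in the sorts enter the granule gene values was not tested.

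**Figure D4:**
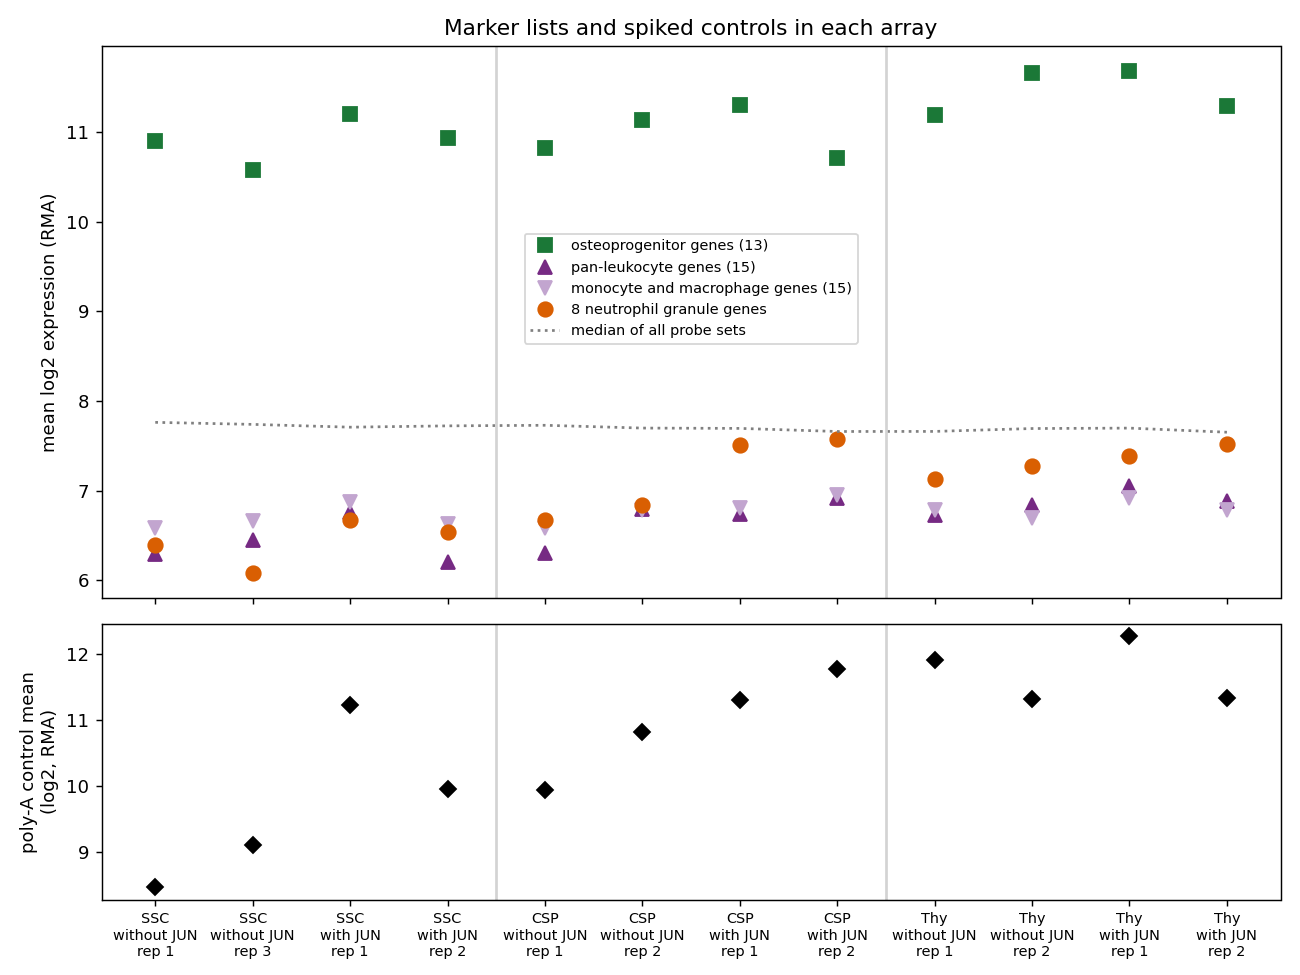
Mean log2 expression (RMA, y axis of the upper panel) of 3 marker lists and of the 8 granule genes in each of the 12 arrays (x axis), with the array median as a dotted line, and the mean of the spiked poly-A controls below. The mean of the 8 granule genes runs from 6.08 in SSC without JUN replicate 3 to 7.58 in CSP with JUN replicate 2, and the controls run from 8.47 to 12.3.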

How the data were processed

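Total RNA was measured on 12 Affymetrix-type arrays, and the deposited values are log2 expression per probe set that the authors made with RMA, per the submitters' processing notes; the sources used here name neither its software nor a version. RMA sets all arrays to 1 distribution, so a change in total RNA is hidden. Of 45037 probe sets besides 64 controls, 34945 had 1 gene symbol in the platform annotation. A probe set was tested when above its array's median in at least 2 arrays, and the brightest per gene was used (12516 of 18193 genes). Differences were fitted with limma 3.58.1 in R 4.3.3, two-sided, with Benjamini-Hochberg adjustment over all tested genes and a threshold of 0.05. JUN effects came from a model of 6 group means (6 residual degrees of freedom) and population differences from an additive model of population and arm (8). Errors are SE of the fit or SD. The scripts were tested on simulated data.

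Arrays with the same mouse number in their titles were taken as 1 animal. For mice 3 and 7 the SSC title carries a date and the CSP and Thy titles none, so that shared animal is not settled by the labels. Deviations of same-mouse arrays from their group means correlated at -0.21 to 0.43. With 2 arrays per group these deviations mirror each other, so 2 mice of the same groups give the same value. The range therefore cannot settle which arrays share an animal. The 4 members below the filter were fitted over all 18193 genes without it. Genes of like pattern are the 3 tested genes of highest Pearson correlation with each tested member. Predicted genes (Gm and a number, names ending in Rik or starting with LOC) were left out of that ranking. The members and the gene lists were chosen with earlier results of these data known. Precision is limited by 2 arrays per group.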

Additional observations from a re-analysis of the deposited data

Results flagged for a closer look

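The JUN difference of S100a9 ran in opposite directions without overlap between arms, higher with JUN in SSC and CSP and lower in Thy. The Thy difference of -0.18 became -0.041 without mouse 3b. Thy minus SSC was -0.76 ± 0.44 and Thy minus CSP was -1.06 ± 0.44 (SE), and in limma neither passed, at adjusted p = 0.9998 and 0.9999 over 12516 genes.

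In Thy, a single array stood apart from the other 3 for 2 genes. S100a9 read 8.52 in replicate 2 without JUN, against 8.21 to 8.25 in the others, and Ngp read 6.38 in that same array, against 7.53 to 7.68. It was the highest of the 4 for S100a9 and the lowest for Ngp. Of the 24 sets of 4 arrays looked at, 2 held such a gap, and about 5% do so by chance.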

How the results depend on the processing

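None of the 4 tested members passed in any JUN comparison under any alternative run (no filter, mean of probe sets, trended prior, mouse or replicate blocks, own arrays, means per mouse, poly-A covariate, each array or mouse left out). Between populations the exception was Camp for SSC minus Thy, as given above. Arms do not share mice, so the replicate number pairs nothing there, and as a block it left 0 genes passing in each of the 5 JUN comparisons.

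Counts over all genes moved more. With the mouse as a block 8 genes passed for SSC minus CSP and 4 for SSC minus Thy, and 125 for CSP minus Thy. SSC minus Thy gave 24 without a filter, 75 with the mean of all probe sets and 0 with the poly-A covariate (777 at an unadjusted p under 0.05), which gave 50 for CSP minus Thy. Leaving out single arrays or mice gave 0 to 282 for JUN in SSC, 0 to 2 in CSP, 0 to 175 in Thy and 0 to 495 for the average, with the highest count without mouse 7 except in CSP, where it was without mouse 4. It gave 7 (without mouse 7) to 62 for SSC minus CSP, 3 (without mouse 3) to 304 (without SSC JUN replicate 1) for SSC minus Thy and 17 (without mouse 3) to 155 for CSP minus Thy. A lone array left in a group was assumed to vary like the others. Without mouse 4 or mouse 7 every group with JUN is such a lone array, all from 1 animal.

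Signs turned where a difference lay near 0. With the poly-A covariate, Ltf for JUN in SSC was 0.056, and CSP minus Thy was -0.13 for S100a8 and 0.10 for S100a9. With arrays or mice left out, JUN in SSC ran from -0.13 to 0.16 for S100a8 and from -0.31 to 0.26 for Ltf. Ltf ran from -0.59 to 0.56 for JUN in Thy and from -0.028 to 0.38 for the average. CSP minus Thy ran from -0.40 to 0.31 for S100a8, from -0.33 to 0.15 for S100a9 and from -0.41 to 0.033 for Ltf. The cause of these shifts was not tested.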

Other observations

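Markers of other blood lineages were mostly below the array median in these sorts, and some erythroid genes were bright. Of 9 genes of eosinophils, basophils and mast cells 8 were above the array median in no array, and the exception, the tryptase gene Tpsb2, was above it in 1. Of 9 B cell genes 6, of 8 T and NK cell genes 6, of 12 erythroid genes 6 and of 7 megakaryocyte and platelet genes 4 were never above it. The erythroid list mean was 7.47 to 7.87, around the array median. Of its globin genes, Hba-a2, at 10.8 to 12.3, and Hbb-b2, at 8.63 to 10.5, were above the median in all 12 arrays. The globin gene Hba-a1, at 5.84 to 6.30, was above it in none. Of 8 endothelial genes each was above it in at least 1 array, and the list mean was 7.55 and 7.45 in SSC, 8.38 and 8.56 in CSP and 8.21 and 8.19 in Thy (groups without and with JUN).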
